A study of Saccharomyces cerevisiae with 4 samples.

Results

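The 31 genes described here encode the enzymes that carry pyruvate into the mitochondrion and oxidise it, and those that rebuild sugar precursors from smaller carbon units. They were chosen by name, as a list of gene symbols, and each symbol was matched to the standard gene name given with the probes of a Saccharomyces cerevisiae oligonucleotide microarray. All 31 were found among the 6336 genes on the array. They fall into 5 steps: the pyruvate dehydrogenase complex with 5 genes, the tricarboxylic acid (TCA) cycle with 11, the NADP-dependent isocitrate dehydrogenases with 3, the glyoxylate cycle with 6, and pyruvate carboxylation, malic enzyme and gluconeogenesis with 6.

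The haploid strains S288C, TTY23, AT22 and TAT12, all of one lineage, entered the comparisons. S288C was the laboratory parent. TTY23 was selected from S288C by laboratory evolution at supraoptimal temperature, AT22 was selected from S288C at low pH with acetic acid, and TAT12 was selected from TTY23 at low pH with acetic acid. Every strain was grown without that stress, in defined medium with 2% glucose at pH 5.0 and 30 °C with agitation at 250 rpm, and RNA was taken in the middle of exponential growth, so the comparisons ask which transcript levels differed between the strains as inherited. The pH is that of the labels, and the study's text gives somewhat higher values for the same cultures. AT22 was set against S288C, and TAT12 was set against S288C, TTY23 and AT22. Each of the 4 comparisons consisted of 2 arrays on which RNA of the same pair of strains was hybridised with the dyes Alexa555 and Alexa647 exchanged. The labels give 1 sample for each comparison, so its arrays were taken to hold the same pair of RNA extracts, and n = 1 throughout. On that reading the distance between the 2 arrays measures labelling and hybridisation, not the spread between cultures. Each evolved strain is an isolate selected from its population, and TTY23 was not compared with S288C among the arrays analysed here.

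Acetyl-CoA made from pyruvate by pyruvate dehydrogenase is condensed with oxaloacetate by citrate synthase and oxidised stepwise in the TCA cycle, which supplies electrons to respiration and carbon skeletons for amino acids. The glyoxylate cycle skips the decarboxylating steps through isocitrate lyase and malate synthase, so that yeast can build biomass from acetate or ethanol, and phosphoenolpyruvate carboxykinase and fructose-1,6-bisphosphatase then carry the carbon back towards hexoses. During growth on glucose the glyoxylate and gluconeogenic genes are repressed, and pyruvate carboxylase is the main refill of oxaloacetate.

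Values are log2 ratios of the first-named strain over the second, one for each array and their mean. A gene was called when its mean lay more than 2 standard deviations from the mean of the 100 genes of nearest intensity, the z-score threshold of the study's methods. This z-score ranks a gene among other genes and carries no p-value. A signal was taken as above background when it was brighter than the 95th percentile of the signal of that dye in the 320 empty spots.

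The arrays set a low ceiling on precision. Between 42.6% and 69.6% of genes were above background in both dyes of an array. Duplicate spots correlated with r between 0.79 and 0.94 within an array, whereas the 2 arrays of a swap, turned the same way, correlated over all genes with r of -0.03 for AT22 over S288C, 0.09 for TAT12 over S288C, 0.13 for TAT12 over TTY23 and -0.17 for TAT12 over AT22. The second AT22 and S288C array had no settled direction: although both carried S288C in Alexa647, it correlated with the second TAT12 and S288C array at r = -0.59. The main values of AT22 over S288C are therefore also given with that array turned around. S288C is described as MATα, but markers of a cells (MFA1, MFA2, STE2, BAR1, AGA2) were above background in 79 of 80 dye channels and those of α cells in 19 of 64.

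Of the 31 genes, 9 were above background in all 16 dye channels of the 8 arrays: PDA1, PDX1 and LPD1 of pyruvate dehydrogenase, CIT1, IDH2, KGD1 and LSC2 of the TCA cycle, IDP1 and PYC1. The weakest probes were those of SFC1, the mitochondrial succinate-fumarate carrier, which was above background in 0 of 16 channels, and MDH1, the mitochondrial malate dehydrogenase, in 1 of 16. CIT3 and MDH2 were above background in 4 channels each and MDH3 in 5. MDH1 encodes an abundant mitochondrial enzyme, and its probe gave no usable level here. Of the 124 combinations of gene and comparison, 11 had no channel above background, and no fold is given for them: SFC1 in all 4 comparisons, MDH1 in AT22 over S288C, TAT12 over TTY23 and TAT12 over AT22, MLS1 in TAT12 over TTY23, and CIT3, ACO1 and MDH3 in TAT12 over AT22. The probes are 50-mers in duplicate, and related gene pairs such as PYC1 with PYC2 and MLS1 with DAL7 may share signal on such an array. Shared signal was not tested, since no probe sequences were at hand.

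**Figure D1:**
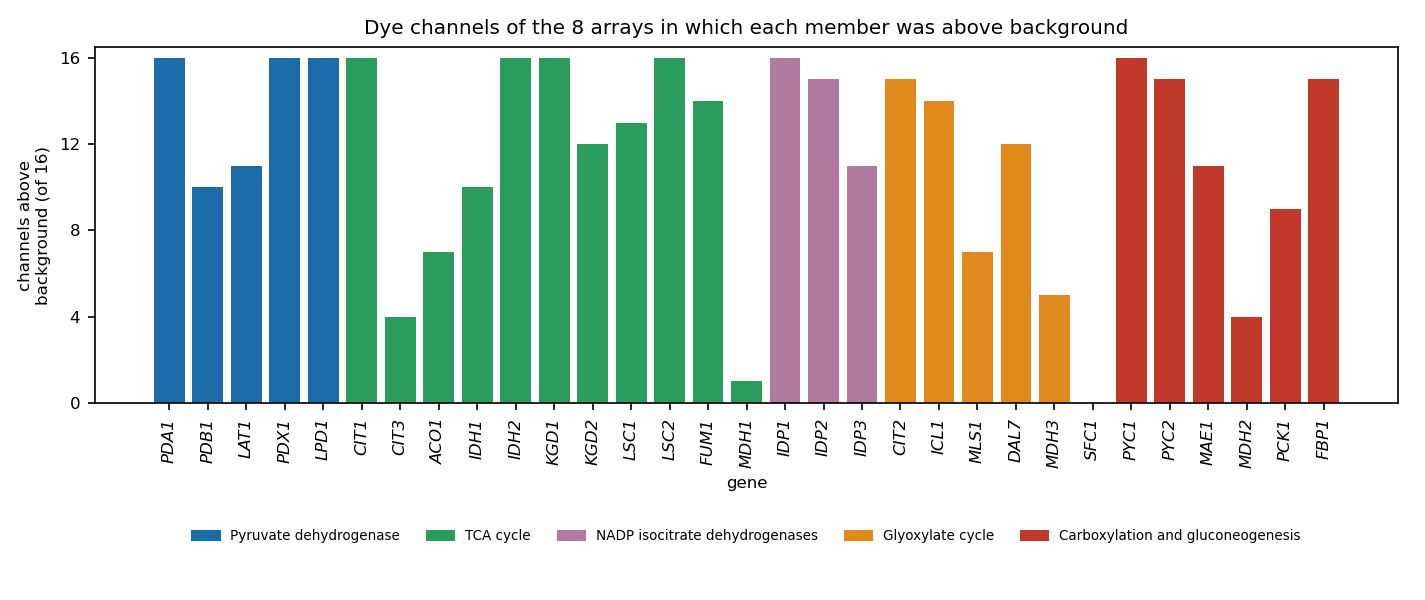
Number of dye channels, of 16 on the 8 arrays, in which each of the 31 genes was above background, with bars coloured by step. CIT1, IDP1 and PYC1 are among the 9 bars that reach 16, and SFC1 has 0.

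The pathway as a whole stayed close to even in all 4 comparisons. The median log2 ratio of the 31 genes was -0.014 in AT22 over S288C, -0.018 in TAT12 over S288C, 0.042 in TAT12 over TTY23 and -0.0045 in TAT12 over AT22, against medians over all genes of 0.025, 0.020, 0.0080 and -0.010. Only 4 of the 124 combinations passed the threshold: PYC1 was lower in AT22 than in S288C, IDH1 and MDH3 were higher in TAT12 than in S288C, and PYC2 was lower in TAT12 than in TTY23. The called share of all genes was 4.62% in AT22 over S288C, where 1 of the 31 was called. It was 5.05% in TAT12 over S288C with 2 of the 31, 5.51% in TAT12 over TTY23 with 1 of the 31, and 4.28% in TAT12 over AT22 with 0 of the 31. The members were thus called about as seldom as genes in general, and no step moved as a block. With the second AT22 and S288C array turned, the share over all genes was 4.02%, 0 of the 31 were called and their median was -0.016.

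The 2 arrays of a swap often disagreed on the direction of these genes. Opposite signs were measured for 15 of the 31 genes in AT22 over S288C, 21 in TAT12 over S288C, 13 in TAT12 over TTY23 and 20 in TAT12 over AT22. The same sign on both arrays was thus shown by 51.6%, 32.3%, 58.1% and 35.5% of the genes, beside 52.9%, 50.2%, 50.0% and 42.1% of all genes. The median size of a member's mean log2 ratio was 0.11 in TAT12 over S288C, smaller than the median of 0.17 by which each array stood from that mean, and in TAT12 over AT22 the 2 quantities were 0.038 and 0.10. In AT22 over S288C (0.11 and 0.10) and in TAT12 over TTY23 (0.11 and 0.099) they were of like size. Over all genes the 2 quantities were 0.164 and 0.165 in TAT12 over S288C and 0.082 and 0.115 in TAT12 over AT22. They were 0.163 and 0.144 in AT22 over S288C and 0.108 and 0.107 in TAT12 over TTY23. The limit for a call differed from gene to gene with intensity. Its median over the 31 genes was 0.49 or -0.53 in AT22 over S288C and 0.47 or -0.45 in TAT12 over S288C. It was 0.37 or -0.35 in TAT12 over TTY23 and 0.28 or -0.26 in TAT12 over AT22. The upper limit of single genes ran from 0.36 to 1.05 in TAT12 over S288C and from 0.090 to 0.65 in TAT12 over AT22. Differences inside a gene's own limits could not be called by this rule.

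**Figure D2:**
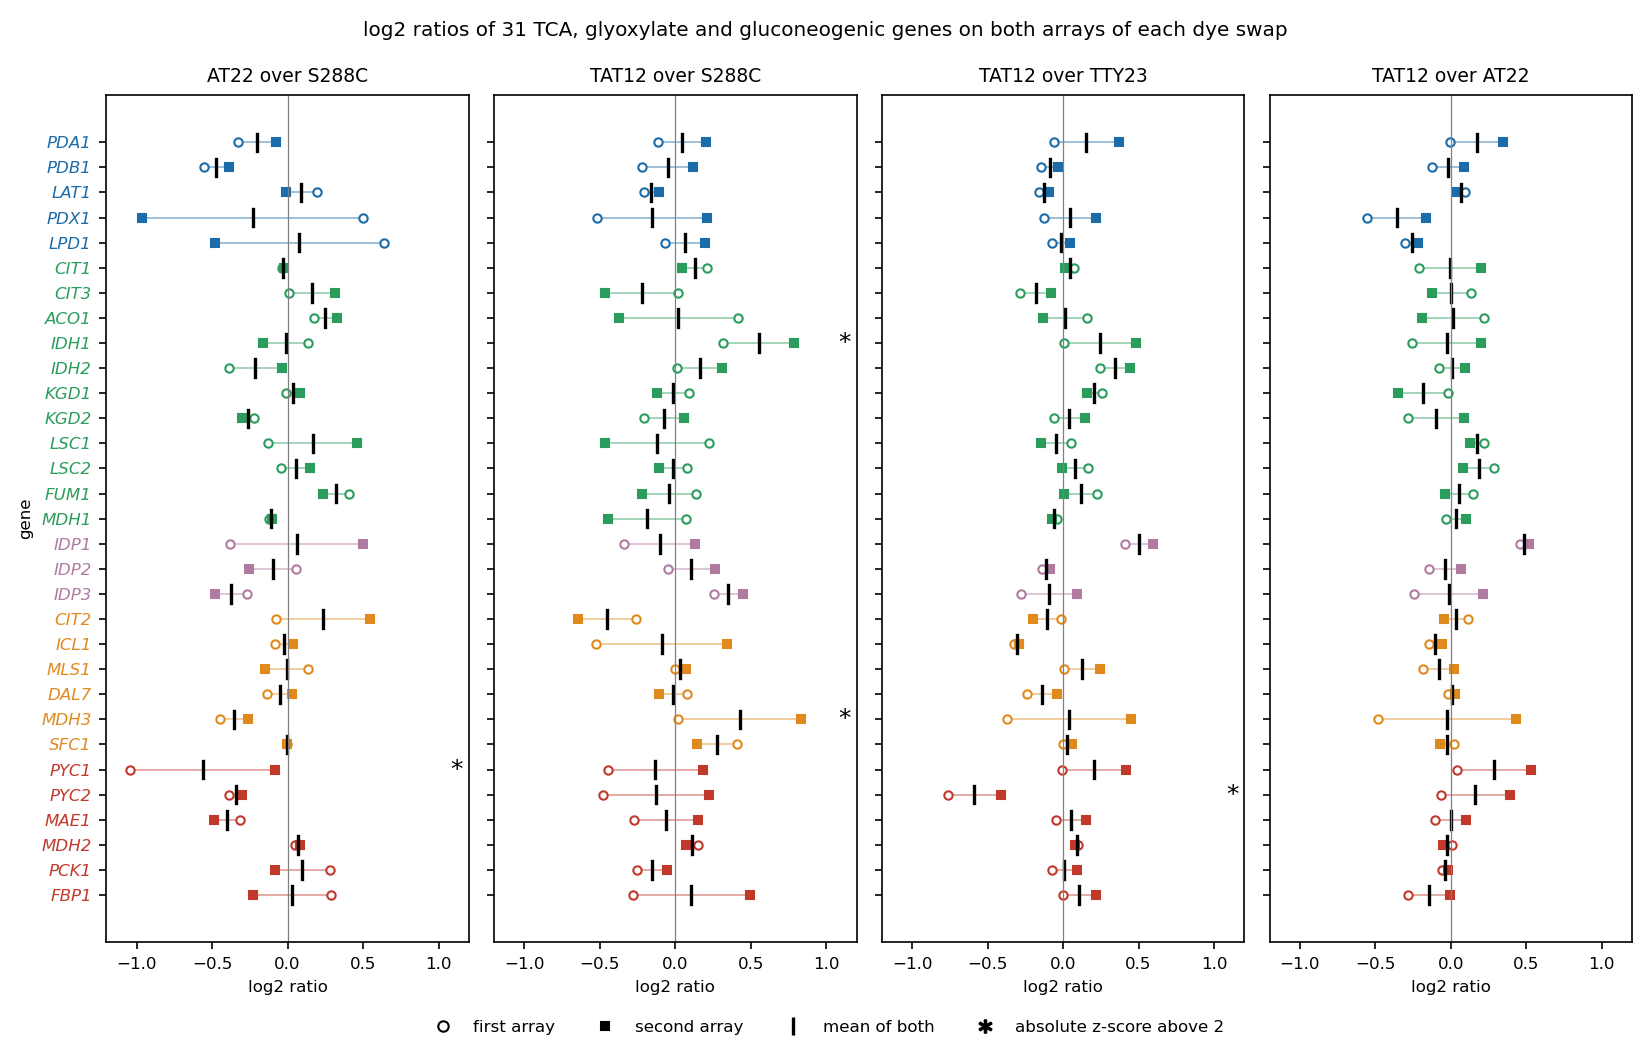
log2 ratio (x axis) of each of the 31 genes (rows, coloured by step) on the first array (open circles) and second array (filled squares) of each dye swap, with the mean as a black bar and an asterisk where the absolute z-score was above 2. Asterisks stand at PYC1, IDH1, MDH3 and PYC2, and the long lines of PDX1 and LPD1 in AT22 over S288C join arrays of opposite sign.

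A linear model (limma) over the 4 dye-swap means, which closes the triangle of S288C, AT22 and TAT12 and leaves 1 residual degree of freedom per gene, gave 0 of the 31 genes an adjusted p under 0.05 in any comparison, and likewise 0 of 6336 genes. The lowest Benjamini-Hochberg adjusted p was 0.999 in AT22 over S288C. At an unadjusted p under 0.05 it held PYC1 in AT22 over S288C and PYC2 in TAT12 over TTY23, that is 1 of the 31 in each, beside 1.44% and 2.37% of all genes. It held 0 of the 31 in TAT12 over S288C and in TAT12 over AT22, beside 3.99% and 1.48%. TTY23 entered 1 swap only, so the model fitted TAT12 over TTY23 exactly and that swap added nothing to the residual. The residual came from the triangle alone, which includes the AT22 and S288C array of unsettled direction. The unadjusted p of PYC2 in TAT12 over TTY23 therefore measured no spread of that comparison, and no conclusion is drawn from it.

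Pyruvate enters the mitochondrial route through the pyruvate dehydrogenase complex. PDA1 and PDB1 encode the α and β subunits of its E1 component, LAT1 the acetyltransferase E2, LPD1 the lipoamide dehydrogenase E3 and PDX1 the protein that binds E3 to the core. None of the 5 passed the threshold in any comparison. Their median log2 ratio was -0.20 in AT22 over S288C (0.10 with the second array turned), -0.051 in TAT12 over S288C, -0.014 in TAT12 over TTY23 and -0.019 in TAT12 over AT22.

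PDB1 read lowest of the 5 in AT22 over S288C, at -0.55 on the first array and -0.39 on the second (mean -0.47, z = -1.87). AT22 was not above background on either array, S288C was on both, and the bound that this allows is under 1, so no fold is given. With the second array turned, the mean was -0.08.

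PDX1 and LPD1, both bright in every channel, split between the 2 arrays of AT22 and S288C. PDX1 read 0.50 on the first and -0.96 on the second, and LPD1 read 0.64 and -0.48. Their means of -0.23 and 0.08 hide these opposite values. With the second array turned, PDX1 stood at 0.73 (z = 1.79) and LPD1 at 0.56 (z = 1.68), still under the threshold.

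In TAT12 over AT22 the same genes were the lowest of the 31 by z-score and were below 0 on both arrays. PDX1 read -0.55 and -0.16 (mean -0.36, z = -1.36), and LPD1 read -0.30 and -0.21 (mean -0.26, z = -1.23). Neither passed the threshold, and both comparisons hold AT22. PDA1 and LAT1 had means between -0.20 and 0.17 in all 4 comparisons. Single arrays of PDA1 read as low as -0.33 in AT22 over S288C and as high as 0.37 in TAT12 over TTY23.

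The 11 TCA cycle genes had medians of 0.036, -0.016, 0.043 and 0.0085 in AT22 over S288C, TAT12 over S288C, TAT12 over TTY23 and TAT12 over AT22, the first becoming -0.048 with the second array turned. IDH1, which encodes the regulatory subunit of the NAD-dependent isocitrate dehydrogenase, was the 1 gene of the cycle called. In TAT12 over S288C it read 0.32 on the first array and 0.79 on the second, a mean of 0.55 or 1.47-fold (z = 2.14). Its duplicate spots were close, at 0.31 and 0.32 on the first array and between 0.73 and 0.84 on the second. S288C was not above background on the second array, where the larger ratio was measured. The called share of all genes in this direction was 3.11%.

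IDH1 read 0.01 and 0.48 in TAT12 over TTY23 (mean 0.25, z = 1.56), with TTY23 not above background on the second array. It read 0.13 and -0.16 in AT22 over S288C and -0.26 and 0.20 in TAT12 over AT22. In all 3 comparisons of TAT12 its ratio was higher on the second array than on the first.

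IDH2, the catalytic partner of IDH1 in the same enzyme, was bright in every channel. It read 0.25 and 0.44 in TAT12 over TTY23 (mean 0.35 or 1.27-fold, z = 1.34) and 0.01 and 0.31 in TAT12 over S288C (mean 0.16). In TAT12 over AT22 it was even, at -0.08 and 0.09. It was -0.39 and -0.03 in AT22 over S288C. The 2 subunits were thus above 0 on both arrays in TAT12 over S288C and in TAT12 over TTY23, but IDH2 was not called in either. Of all 6336 genes, 1608 and 1567 were above 0 on both arrays of these comparisons. The first-array values of 0.01, for IDH2 against S288C and for IDH1 against TTY23, were close to 0. That of IDH2 came from duplicate spots at -0.099 and 0.13, so its sign is unsettled.

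FUM1 and ACO1 were the highest members by z-score in AT22 over S288C. FUM1, the fumarase of mitochondria and cytosol, read 0.41 and 0.23 (mean 0.32, z = 1.66), and ACO1, the mitochondrial aconitase, read 0.17 and 0.33 (mean 0.25, z = 1.19). Both were above background in both strains. With the second array turned, FUM1 stood at 0.09 and ACO1 at -0.08.

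None of the remaining TCA genes was called. CIT1, the mitochondrial citrate synthase that opens the cycle, had means between -0.03 and 0.13, with arrays at -0.21 and 0.20 in TAT12 over AT22. KGD1 and KGD2 encode the dehydrogenase and succinyltransferase of the α-ketoglutarate dehydrogenase complex. KGD1 read 0.26 and 0.16 in TAT12 over TTY23 (mean 0.21) and -0.02 and -0.35 in TAT12 over AT22 (mean -0.19). KGD2 read -0.22 and -0.30 in AT22 over S288C, where AT22 was not above background on either array and S288C was, as labelled, at least 1.19-fold higher (mean log2 ratio 0.04 with the second array turned).

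LSC1 and LSC2 are the α and β subunits of succinyl-CoA ligase. LSC1 was among the 3 highest members by z-score in TAT12 over AT22, at 0.22 and 0.13 (mean 0.17, z = 1.04), with TAT12 not above background on either array and AT22 on the first only. LSC1 was above background in every channel of AT22 over S288C, where it read -0.13 and 0.46 (mean 0.17, or -0.30 with z = -1.54 when the second array was turned), and of TAT12 over S288C, where it read 0.22 and -0.46 (mean -0.12). LSC2, bright throughout, read 0.29 and 0.08 in TAT12 over AT22 (mean 0.18). CIT3, a minor mitochondrial citrate synthase, read -0.29 and -0.08 in TAT12 over TTY23 (z = -1.86) and 0.02 and -0.46 in TAT12 over S288C (z = -1.29), with TAT12 not above background on any of these arrays. MDH1 read 0.07 and -0.44 in TAT12 over S288C (z = -1.32), where TAT12 on the second array was its only channel above background.

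The 3 NADP-dependent isocitrate dehydrogenases make 2-oxoglutarate and NADPH: IDP1 in mitochondria, IDP2 in the cytosol and IDP3 in peroxisomes. IDP1 read higher in TAT12 than in TTY23 or AT22, with close values on the paired arrays, but was not called. In TAT12 over TTY23 it read 0.41 and 0.59 (mean 0.50 or 1.42-fold, z = 1.68), and in TAT12 over AT22 it read 0.46 and 0.52 (mean 0.49 or 1.40-fold, z = 1.46). It was bright in both strains on all of these arrays, and its 4 spots lay between 0.34 and 0.62 in TAT12 over TTY23 and between 0.43 and 0.52 in TAT12 over AT22. The threshold for genes as bright as IDP1 lay at 0.60 in TAT12 over TTY23 and 0.65 in TAT12 over AT22. When the standard deviation was taken over all genes instead, it passed in both, with z of 2.25 and 2.73.

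Against S288C the paired arrays of IDP1 disagreed in sign. In TAT12 over S288C it read -0.34 and 0.13 (mean -0.10), and in AT22 over S288C it read -0.38 and 0.50 (mean 0.06, or -0.44 with the second array turned). IDP3 was among the 3 highest members by z-score in TAT12 over S288C, at 0.25 and 0.45 (mean 0.35, z = 1.57), with S288C not above background on the second array, and read -0.27 and -0.48 in AT22 over S288C (mean -0.38, or 0.11 with the second array turned). IDP2 had means between -0.11 and 0.11 in all comparisons, from arrays between -0.25 and 0.26.

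**Figure D3:**
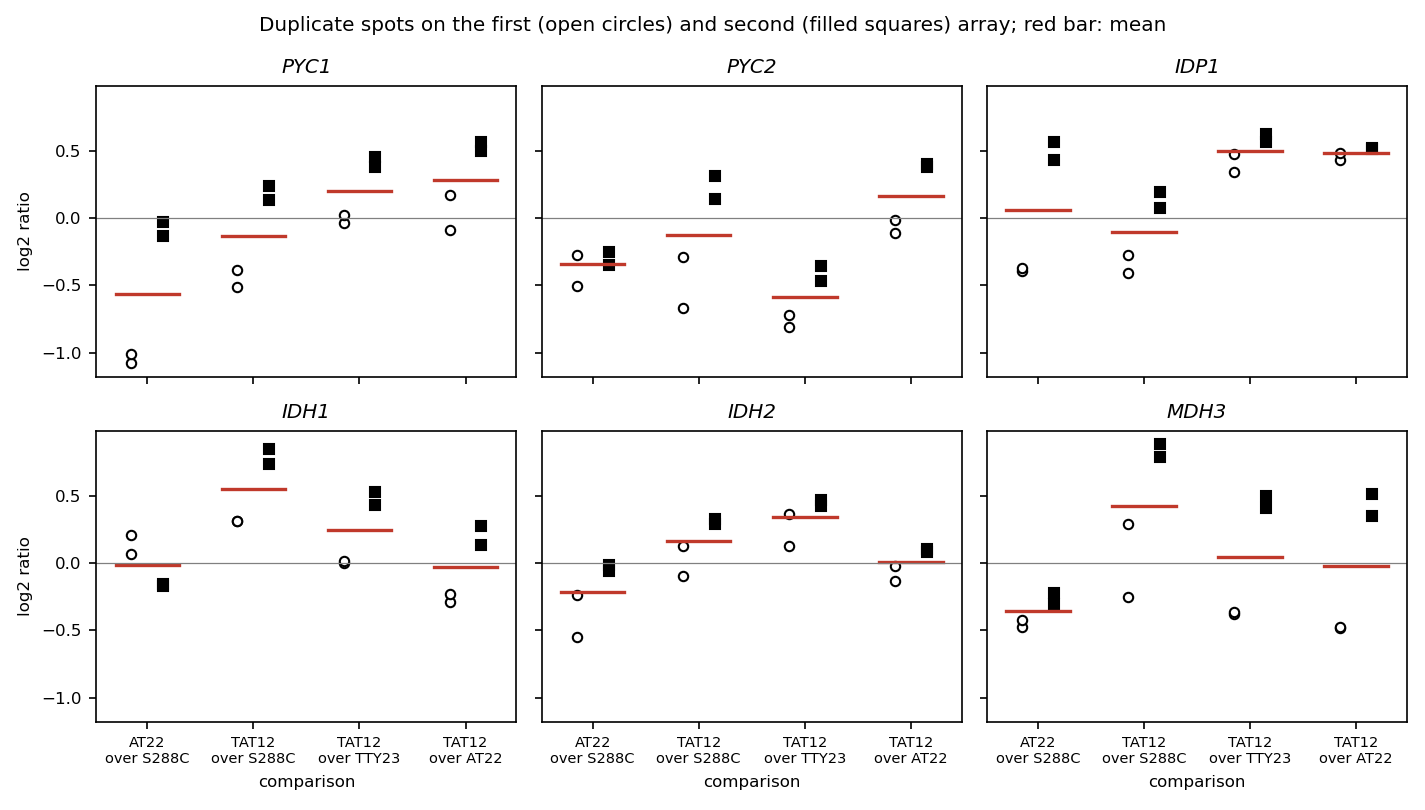
log2 ratio (y axis) of the duplicate spots of PYC1, PYC2, IDP1, IDH1, IDH2 and MDH3 on the first array (open circles) and the second array (filled squares) of each comparison (x axis), with the mean of both arrays as a red bar. The 4 spots of IDP1 lie between 0.43 and 0.52 in TAT12 over AT22, whereas MDH3 lies below 0 on the first and above 0 on the second array of TAT12 over TTY23.

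The 6 glyoxylate cycle genes had medians of -0.015, 0.0083, -0.038 and -0.026 in the order AT22 over S288C, TAT12 over S288C, TAT12 over TTY23 and TAT12 over AT22, the first becoming -0.070 with the second array turned. ICL1, the isocitrate lyase that commits carbon to the cycle, read -0.32 and -0.29 in TAT12 over TTY23 (mean -0.31 or 0.81-fold, z = -1.29), with both strains bright on both arrays. It was -0.52 and 0.34 in TAT12 over S288C and between -0.10 and -0.02 in the means of AT22 over S288C and TAT12 over AT22. CIT2, the peroxisomal citrate synthase and a target of the retrograde pathway from mitochondria to nucleus, was the lowest member in TAT12 over S288C at -0.26 and -0.65 (mean -0.46 or 0.73-fold, z = -1.60). In AT22 over S288C it read -0.08 and 0.55 (z = 0.98), or -0.31 with the second array turned.

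The malate synthases MLS1 and DAL7 showed no large ratio. MLS1 read -0.18 and 0.02 in TAT12 over AT22, where it was among the 3 lowest by z-score (-0.88), with TAT12 not above background. DAL7 had means between -0.14 and 0.01 in all 4 comparisons. SFC1 had no channel above background.

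MDH3, the peroxisomal malate dehydrogenase, was called higher in TAT12 than in S288C on a dim probe. It read 0.02 on the first array and 0.84 on the second (mean 0.43 or 1.34-fold, z = 2.26), TAT12 being above background on the second array only and S288C on the first only. Its duplicate spots on the first array stood at -0.25 and 0.29. In the other comparisons of TAT12 its arrays also parted, at -0.37 and 0.45 against TTY23 and -0.48 and 0.43 against AT22. The ratio was thus lower when TAT12 carried Alexa647 and higher when it carried Alexa555 in every TAT12 comparison, and the part of the dye in the call was not tested. In AT22 over S288C it read -0.45 and -0.26, with AT22 not above background on either array and S288C, as labelled, at least 1.17-fold higher (mean log2 ratio -0.09 with the second array turned).

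The genes for refilling oxaloacetate and for gluconeogenesis held the other 2 calls. PYC1 and PYC2 encode the isoforms of pyruvate carboxylase, a cytosolic enzyme in yeast. PYC2 was called lower in TAT12 than in TTY23, with both strains bright: it read -0.76 and -0.41 in TAT12 over TTY23, a mean of -0.59 or 0.67-fold (z = -2.25). All 4 spots were below 0, between -0.81 and -0.36. The called share of all genes in this direction was 2.43%. PYC1 read -0.01 and 0.41 in the same comparison (mean 0.20).

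PYC2 also read below 0 on both arrays of AT22 over S288C, at -0.39 and -0.30 (mean -0.34, z = -1.42), which became -0.04 with the second array turned. In TAT12 over S288C it read -0.48 and 0.23, and in TAT12 over AT22 -0.07 and 0.39.

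PYC1 was called lower in AT22 than in S288C on the strength of 1 array. It read -1.05 on the first array, with spots between -1.08 and -1.01, and -0.08 on the second, a mean of -0.56 or 0.68-fold (z = -2.13). The called share of all genes in this direction was 4.09%. All channels were above background. With the second array turned, the mean was -0.48 and z was -0.86, and the call was lost. In TAT12 over AT22 PYC1 was the second highest member, at 0.04 and 0.53 (mean 0.29, z = 1.07), and in TAT12 over S288C it read -0.45 and 0.18.

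MAE1, the mitochondrial malic enzyme that turns malate into pyruvate, read -0.32 and -0.49 in AT22 over S288C (mean -0.40 or 0.76-fold, z = -1.77), with both strains above background on both arrays. It became 0.09 with the second array turned, and was within 0.06 of 0 in the means of the other comparisons. PYC1, PYC2 and MAE1 were thus all below 0 on both arrays of AT22 over S288C as labelled, but 1 of these 3 passed the threshold. Of all 6336 genes, 1612 were below 0 on both arrays. The rest of the step was not: MDH2 read 0.05 and 0.08, PCK1 0.28 and -0.08, and FBP1 0.29 and -0.23. With the second array turned, PYC1, PYC2 and MAE1 each had arrays on opposite sides of 0.

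None of the gluconeogenic enzymes was called. PCK1, the phosphoenolpyruvate carboxykinase, had means between -0.16 and 0.10, FBP1, the fructose-1,6-bisphosphatase, between -0.15 and 0.11, and MDH2, the cytosolic malate dehydrogenase, between -0.02 and 0.11. The z-score farthest from 0 among the 3 was -0.91, for PCK1 in TAT12 over S288C. The means of FBP1 were taken over arrays that disagreed, at -0.28 and 0.49 in TAT12 over S288C and at 0.29 and -0.23 in AT22 over S288C. With the second AT22 and S288C array turned, FBP1 stood at 0.26 (z = 1.21) and PCK1 at 0.18 (z = 0.87). FBP1 was above background in 15 of 16 channels and PCK1 in 9.

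**Figure D4:**
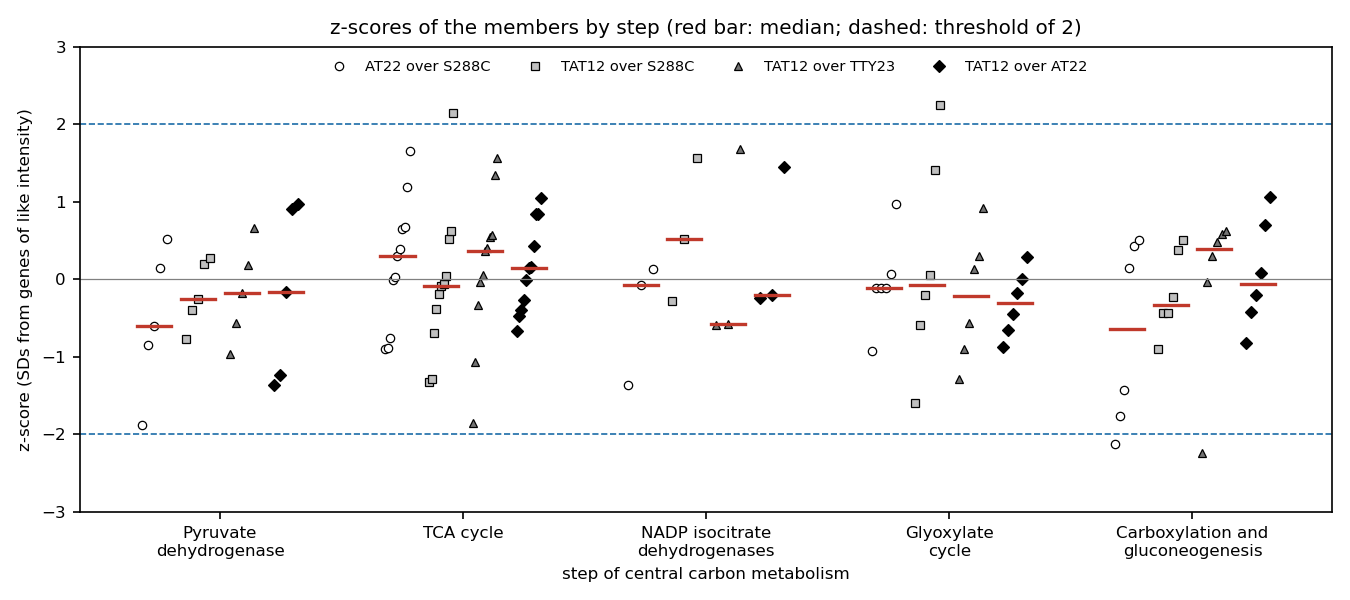
z-score (y axis) of each gene, grouped by step of central carbon metabolism (x axis) and comparison (symbols), with the median of each group as a red bar and the threshold of 2 as dashed lines. The 4 points outside the dashed lines are PYC1 at -2.13, IDH1 at 2.14, MDH3 at 2.26 and PYC2 at -2.25.

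The 3 direct edges between S288C, AT22 and TAT12 allow TAT12 over S288C to be computed a second way, through AT22. For the 31 genes the direct and indirect log2 ratios differed by a median of 0.25, or 0.15 with the second AT22 and S288C array turned, against a median direct ratio of 0.11 in size. The median mismatch was thus larger than the median ratio. The 2 ways had the same sign for 12 of the 31 genes, or 16 with that array turned. IDH1, called in TAT12 over S288C at 0.55, stood at -0.04 through AT22, or 0.12 with that array turned. CIT2, at -0.46 directly, stood at 0.27 through AT22, or -0.28 with that array turned.

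Around the pathway, 64 further genes were examined: succinate dehydrogenase, other TCA and lipoylation genes, the kinases and phosphatases of pyruvate dehydrogenase, mitochondrial carriers, regulators, the genes that degrade gluconeogenic enzymes, and genes released from glucose repression. In AT22 over S288C 1 was called higher and 4 lower, in TAT12 over S288C 3 and 2, in TAT12 over TTY23 2 and 1, and in TAT12 over AT22 1 and 1. The called shares of all genes were 4.62%, 5.05%, 5.51% and 4.28% in the same order. With the second AT22 and S288C array turned, 0 were called higher and 2 lower, beside 4.02% of all genes. The median log2 ratio of the 64 lay between -0.0019 and 0.013. The 4 kinases and phosphatases and the 8 genes of gluconeogenic enzyme degradation gave 0 calls.

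HXK1, the hexokinase isoform repressed by glucose, was called in 2 comparisons with both arrays above 0. It read 0.95 and 0.91 in TAT12 over TTY23 (mean 0.93, z = 3.40) and 0.82 and 0.38 in TAT12 over AT22 (mean 0.60, z = 3.17), with both strains bright on all arrays. SUC2, the invertase, was lower in TAT12 than in S288C, at -0.31 and -1.64 (mean -0.97, z = -3.54). HAP2, a subunit of the activator of respiratory genes, was lower in TAT12 than in TTY23, at -0.97 and -0.23 (mean -0.60, z = -3.24). Of the 15 genes released from glucose repression, 3 were called in AT22 over S288C, beside 4.62% of all genes, and 2 with the second array turned, beside 4.02%. The latter were HXK1 (-0.85) and SUC2 (-0.87), which read 0.17 and 0.03 as labelled. In the other comparisons 2 of the 15 were called in TAT12 over S288C, beside 5.05% of all genes, 2 in TAT12 over TTY23, beside 5.51%, and 1 in TAT12 over AT22, beside 4.28%.

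ACS1, the acetyl-CoA synthetase used on non-fermentable carbon, was called lower in AT22 than in S288C (-0.58 and -0.41, mean -0.50, or -0.08 with the second array turned) and higher in TAT12 than in S288C (0.56) and TTY23 (0.20). Its arrays parted in both comparisons of TAT12, at -0.12 and 1.23 and at -0.43 and 0.83, on a probe with no channel above background in TAT12 over TTY23. Among the subunits of succinate dehydrogenase, the enzyme shared by the TCA cycle and the respiratory chain, SDH2 read -0.48 and -0.96 in AT22 over S288C (mean -0.72, z = -2.85), with AT22 not above background, and 0.24 with the second array turned. MPC1, a subunit of the mitochondrial pyruvate carrier, read -0.43 and -0.44 in TAT12 over S288C (mean -0.44, z = -2.32), with TAT12 not above background on the first array. YHM2, a mitochondrial citrate carrier, read 0.21 and 0.69 there (mean 0.45, z = 2.12).

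The other calls were on AIM22 and LIP5, which act in lipoylation of the dehydrogenase complexes, on GUT1, the glycerol kinase, and on REG2. AIM22 was called lower in AT22 than in S288C (-0.33 and -0.62, mean -0.48, or 0.15 with the second array turned), with AT22 above background on neither array. It was called higher in TAT12 than in S288C (0.51, from -0.21 and 1.23). There TAT12 was above background on the second array only and S288C on the first only. LIP5 was called lower in TAT12 than in AT22 (mean -0.18) from arrays of opposite sign, -0.39 and 0.03. TAT12 was above background on neither of these arrays and AT22 on the first only. In AT22 over S288C GUT1 was called higher (0.58, from 0.09 and 1.07) and REG2 lower (-0.62, from -0.81 and -0.42, with AT22 above background on neither array). GUT1 stood at -0.49 and REG2 at -0.20 with the second array turned.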

How the data were processed

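Per the labels and the methods, RNA from mid-exponential cultures was labelled with Alexa555 and Alexa647 and hybridised to slides of 50-mer oligonucleotides. The deposited scanner tables give the mean intensity of each spot and of its local background. The authors also deposited a z-score per gene from genArise (a score, version not given in the sources used here). Its background correction and normalization are unstated, its column medians lie between -0.10 and 0.11, and it served only as an alternative.

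Of 13056 spots per array, 12672 gene spots formed 6336 genes in duplicate. Intensities were corrected with normexp (offset 50) and normalized by loess within each array, with control spots given no weight (limma 3.58.1, R 4.3.3). Spots were averaged, the dye-swapped array was turned, and both arrays were averaged to 1 replicate. z-scores used 50 genes on each side in intensity. limma was fitted to the 4 means with Benjamini-Hochberg adjustment over 6336 genes. Where a strain was above background on no array of a comparison and the other on both, the fold is a bound against the dimmest signal above background. The z-score and the fit were tested on simulated data.

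The members and the other gene lists were chosen with earlier results of these data known. Values on both arrays are given for called members and for the 3 highest and 3 lowest members by z-score in a comparison, and further members were named after their values were seen. Of the other genes of the pathway, 15 names were matched through a reference table and 1 was not matched. Alternatives were no background correction, median centring, bright genes only, each array alone, the standard deviation over all genes, a fold of 2, the deposited z-score, the second AT22 and S288C array turned, and a limma fit to 8 arrays with a dye term. The number of arrays limits the precision.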

Additional observations from a re-analysis of the deposited data

Results flagged for a closer look

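For MDH3, the peroxisomal malate dehydrogenase, the log2 ratio over S288C lay below 0 on both arrays of AT22 (mean -0.36, z = -0.92, not called) and above 0 on both arrays of TAT12 (mean 0.43, from 0.02 and 0.84). The value of 0.02 came from duplicate spots at -0.25 and 0.29, so its sign is unsettled. AT22 was not above background on either of its arrays, and TAT12 was above background on the second array only. The difference between these comparisons, which share S288C, was not tested. In the direct comparison of TAT12 over AT22 the arrays read -0.48 and 0.43 (mean -0.03), with no channel above background, so the direct ratio over S288C and that computed through AT22 (-0.38) differed by 0.81. With the second AT22 and S288C array turned, the mean in AT22 was -0.09 and its 2 arrays lay on opposite sides of 0.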

How the results depend on the processing

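The number of the 31 genes called changed with most choices, since each main count was at most 2. In AT22 over S288C (1 in the main setting) it was 2 without background correction (PDB1 added), 2 with genes above background only (MAE1 added), and 0 with the second array alone, with that array turned, with the deposited z-scores and at a fold of 2. In TAT12 over S288C (2) it was 1 without background correction, 0 with the first array alone and 1 with the second alone. It was 0 with the standard deviation over all genes, 1 with the deposited z-scores and 0 at a fold of 2. With genes above background only it was also 0, but that filter kept 12 of the 31 and removed IDH1 and MDH3 before scoring. In TAT12 over TTY23 (1) it was 2 with median centring (CIT3 added), 0 with the first array alone, 2 with the standard deviation over all genes (IDP1 added), 2 with the deposited z-scores (IDH1 added) and 0 at a fold of 2. In TAT12 over AT22 (0) it was 1 with either array alone, MDH3 in opposite directions, and 2 with the standard deviation over all genes (IDP1 higher, PDX1 lower). PYC2 in TAT12 over TTY23 kept its call in all but the settings of a fold of 2 and of either array alone, the second of which called MDH3 instead. The median log2 ratio moved in AT22 over S288C to 0.013 with bright genes only, -0.044 on the first array and -0.079 on the second, in TAT12 over S288C to 0.12 on the second array, and in TAT12 over TTY23 to -0.041 on the first. The limma count at an adjusted p under 0.05 stayed at 0 in both of its alternatives. The count at an unadjusted p under 0.05 did not stay the same. With the second AT22 and S288C array turned it was higher than in the main fit in all 4 comparisons. With the dye term it was higher in all but TAT12 over S288C. Of the single-gene values, 12 moved by more than the spread between arrays and 151 did not. A single array could not move by this rule, and the bright-gene filter left each ratio unchanged. No conclusion on stability is therefore drawn from the 151. With the second AT22 and S288C array turned, ACO1, CIT2, FUM1, MAE1, MDH3, PDB1 and PYC2 moved in that comparison, and IDH1 and PYC1 did not. The cause of the changes in counts, medians and single-gene values was not tested, except that single arrays and bright-gene filters use fewer data by construction. No paired analysis was possible because each comparison has 1 replicate.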
